A study of Homo sapiens with 36 samples.

Results

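EZH2-mutant and EZH2-wild-type germinal-centre B-cell (GCB) lymphoma lines were compared in a targeted RNA sequencing survey of lymphoma cell lines. The comparison held 12 of the 36 lines, chosen by matching line names to the sample titles. The EZH2-mutant group was made up of 7 lines: DB, KARPAS422, OCILY1, SUDHL10, SUDHL4, SUDHL6 and WSU_DLCL2. The EZH2-wild-type group was made up of 5 lines: DOHH2, FARAGE, OCILY19, OCILY7 and TOLEDO. EZH2 status and the GCB class are known from outside the files. No allele was read from the counts, and the GCB class of the lines was not tested. The mutant lines are known to carry a change at a single tyrosine of the catalytic SET domain.

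Each line was 1 library, and nothing says that a line was cultured more than once. The replicate was thus the line and the spread was that between lines. The lines differ in much besides EZH2: DOHH2 came from a transformed follicular lymphoma, and FARAGE is known to carry Epstein-Barr virus. Such differences cannot be told apart from EZH2 status here. In bulk libraries, fewer cells in a state and less RNA per cell cannot be told apart either.

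EZH2 is the catalytic subunit of Polycomb repressive complex 2 (PRC2), which methylates lysine 27 of histone H3 and so keeps genes silent. Germinal-centre B cells express EZH2 strongly, and there it is known to hold down genes of plasma cell differentiation and of cell cycle arrest until the cell leaves the germinal centre. The altered tyrosine is known to raise trimethylation of that lysine when the mutant and normal enzymes act together.

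The panel read 2549 genes, and total counts over those genes were 6960169 to 13451527 in the mutant lines and 7980824 to 11977607 in the wild-type lines. Between 2318 and 2500 genes per line lay above the highest of the 10 control probes, which reached at most 3.85 CPM (counts scaled to a common library size). Scaling factors by the trimmed mean of M values (TMM) were 0.674 to 1.40 in the mutant lines and 0.803 to 1.39 in the wild-type lines, highest in SUDHL10 and OCILY7. Levels below are CPM after TMM scaling, which compare a gene between lines and not 1 gene with another. Differences are log2 fold changes, mutant minus wild type, from edgeR's quasi-likelihood test on the 2177 genes that reached 10 CPM in 5 or more lines. A gene was called at a Benjamini-Hochberg (BH) adjusted p under 0.05.

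EZH2 itself was read at 1452 CPM in DB, 1130.5 in KARPAS422, 1742 in OCILY1, 1217 in SUDHL10, 2113 in SUDHL4, 2852 in SUDHL6 and 456 in WSU_DLCL2, against 809 CPM in DOHH2, 374 in FARAGE, 1261 in OCILY19, 574 in OCILY7 and 956 in TOLEDO. The ranges overlapped, with WSU_DLCL2 the lowest mutant line and OCILY19 the highest wild-type line. The log2 fold change was 0.98 ± 0.45 (SE), at an unadjusted p of 0.047 and an edgeR BH-adjusted p of 0.443, so the gene was not called. As the change in these lines is a point change, the transcript level does not check the mutation status. EZH2 was the only one of the 11 listed PRC2 subunits in the panel.

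6 of the 2177 genes were called, which is 0.276% of those tested. MAPK10 and MYBL1 rose in the mutant lines (0.0919% of genes tested), and CCR7, MYB, TNFAIP3 and CD44 fell (0.184%). MYB, at 10.2-fold, had the smallest fitted difference of the 6. At an unadjusted p under 0.05 there were 241 genes (11.1%), of which 117 were higher (5.37%) and 124 lower (5.7%) in the mutant lines. The median log2 fold change over all genes tested was −0.02, with 1065 genes above 0 (48.9%) and 1112 below (51.1%).

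The number of calls was sensitive to single lines. It was 2 without DB, without OCILY1, without SUDHL4 or without WSU_DLCL2, and 3 without OCILY19, whereas it was 12 without SUDHL10. With each line left out in turn, CCR7 and MAPK10 were called in 12 of 12 fits, MYB in 7, TNFAIP3 and CD44 in 6 each and MYBL1 in 4. DESeq2 on the same counts called 77 genes (3.54% of those tested), 29 higher and 48 lower, and those included all 6. With limma-voom CD44 and TNFAIP3 did not pass, at BH-adjusted p of 0.152 for CD44 and 0.127 for TNFAIP3. With the log2 TMM factor as a covariate CCR7 alone was called by edgeR.

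**Figure D1:**
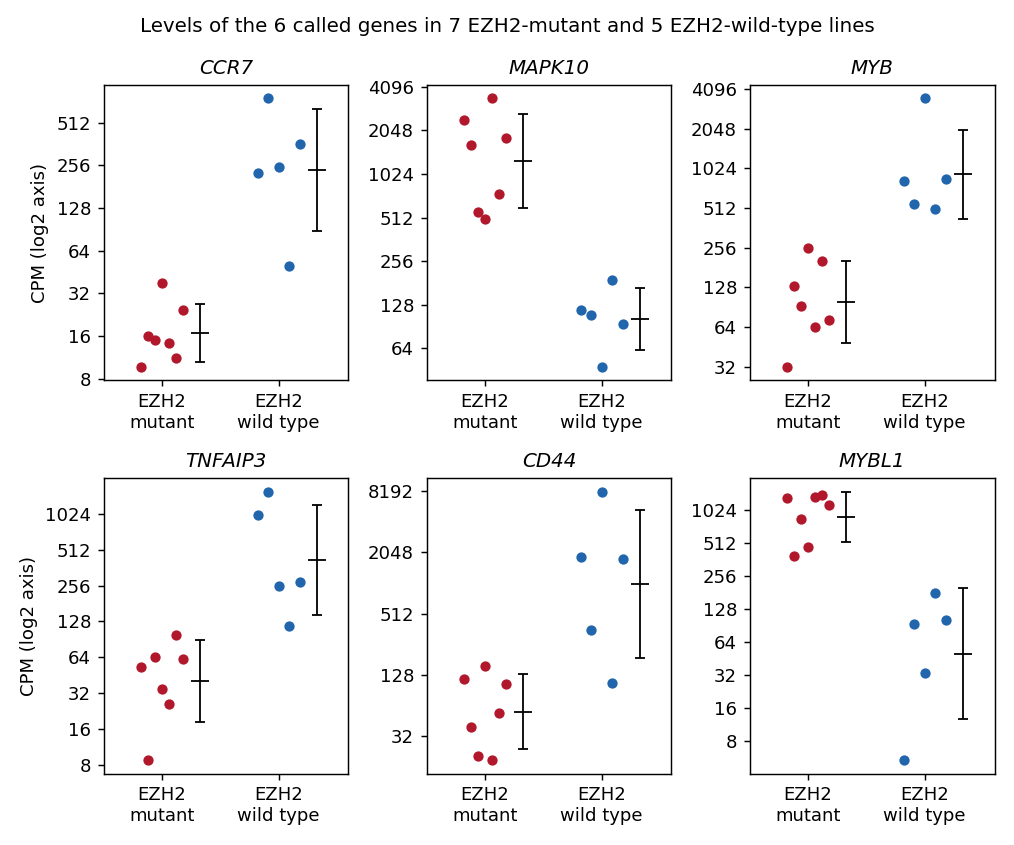
CPM (log2 axis) of the 6 called genes, 1 point per line, with 7 EZH2-mutant lines in red on the left and 5 EZH2-wild-type lines in blue on the right of each panel. Black bars give the mean and SD of log2 CPM. The groups do not overlap for CCR7, MAPK10, MYB, TNFAIP3 and MYBL1, and they overlap for CD44.

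MAPK10 and MYBL1, both on the list of germinal centre B-cell genes, were the 2 genes that rose. MAPK10 (chromosome 4, 85990007 to 86594625, GRCh38) encodes the stress kinase JNK3 and is used in expression classifiers of the GCB class. It was read at 2405 CPM in DB, 1623 in KARPAS422, 558 in OCILY1, 498 in SUDHL10, 3409 in SUDHL4, 751 in SUDHL6 and 1822 in WSU_DLCL2, against 119 CPM in DOHH2, 109 in FARAGE, 47.7 in OCILY19, 190.4 in OCILY7 and 94 in TOLEDO. Every mutant line lay above every wild-type line. This was a log2 fold change of 3.82 ± 0.60 (SE), a 14.1-fold higher level, with an edgeR BH-adjusted p of 0.0114.

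MYBL1 (chromosome 8, 66562175 to 66614247) encodes A-MYB, a transcription factor of dividing germinal-centre B cells. Its levels were 1323 CPM in DB, 388 in KARPAS422, 845 in OCILY1, 477 in SUDHL10, 1351 in SUDHL4, 1401 in SUDHL6 and 1142 in WSU_DLCL2, against 5.39 CPM in DOHH2, 93.2 in FARAGE, 33.5 in OCILY19, 182 in OCILY7 and 102 in TOLEDO. The lowest mutant line, KARPAS422, was above the highest wild-type line, OCILY7, and DOHH2 was far below the rest. Mean log2 CPM was 9.80 ± 0.76 in mutant lines and 5.66 ± 1.98 in wild-type lines (SD, n = 7 and 5). The fitted log2 fold change was 3.57 ± 0.71 (SE) with an edgeR BH-adjusted p of 0.0437, which was over 0.05 without DB, OCILY1, SUDHL4, SUDHL6, WSU_DLCL2, FARAGE, OCILY19 or TOLEDO, with 0.106 the highest.

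MYB (chromosome 6, 135181315 to 135219173), the related factor of early blood cells and their precursors, moved the other way and fell in the mutant lines. Its levels were 31.8 CPM in DB, 132 in KARPAS422, 92.8 in OCILY1, 252 in SUDHL10, 64 in SUDHL4, 203 in SUDHL6 and 72.6 in WSU_DLCL2, against 822 CPM in DOHH2, 546 in FARAGE, 3476 in OCILY19, 506 in OCILY7 and 844 in TOLEDO. The groups did not overlap, and OCILY19 stood far above the other wild-type lines. MYB had a log2 fold change of −3.35 ± 0.60 (SE), a 10.2-fold lower level, with an edgeR BH-adjusted p of 0.0215. Without OCILY19 it was −2.49 with an adjusted p of 0.0637. The adjusted p was also over 0.05, up to 0.0719, without DB, OCILY1, SUDHL4 or WSU_DLCL2.

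CCR7 (chromosome 17, 40553769 to 40565472) encodes the chemokine receptor that draws B cells toward T-cell zones, and germinal-centre B cells normally keep it low. It was read at 9.66 CPM in DB, 16 in KARPAS422, 14.9 in OCILY1, 38 in SUDHL10, 14.3 in SUDHL4, 11.1 in SUDHL6 and 24.5 in WSU_DLCL2, against 226 CPM in DOHH2, 758 in FARAGE, 247 in OCILY19, 49.9 in OCILY7 and 359 in TOLEDO. No mutant line reached the lowest wild-type line, OCILY7. CCR7 differed by −4.16 ± 0.60 (SE) on the log2 scale, a 17.8-fold lower level, with an edgeR BH-adjusted p of 0.00735, the smallest over the panel.

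CD44 (chromosome 11, 35138870 to 35232402), the hyaluronan receptor that germinal-centre B cells carry at low levels, had the largest fitted difference of the 6. Its levels were 117 CPM in DB, 39.2 in KARPAS422, 20.2 in OCILY1, 154 in SUDHL10, 18.3 in SUDHL4, 53.3 in SUDHL6 and 104 in WSU_DLCL2, against 1864 CPM in DOHH2, 349.7 in FARAGE, 8162 in OCILY19, 105 in OCILY7 and 1760.2 in TOLEDO. OCILY7 lay inside the mutant range, below DB and SUDHL10, and the other 4 wild-type lines were above it. The log2 fold change was −5.08 ± 0.91 (SE) with an edgeR BH-adjusted p of 0.0215. It was −3.82 without OCILY19, with an adjusted p of 0.0637. Leaving out DB, OCILY1, SUDHL4, SUDHL6 or WSU_DLCL2 also brought the adjusted p to between 0.0548 and 0.0719.

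TNFAIP3 (chromosome 6, 137867188 to 137883312) encodes A20, a ubiquitin-editing enzyme that NF-kB induces and that shuts NF-kB signalling down. It was read at 53.2 CPM in DB, 8.72 in KARPAS422, 63.6 in OCILY1, 34.6 in SUDHL10, 25.8 in SUDHL4, 98.9 in SUDHL6 and 61.9 in WSU_DLCL2, against 1008 CPM in DOHH2, 1575 in FARAGE, 253 in OCILY19, 118 in OCILY7 and 277 in TOLEDO. The groups did not overlap, with DOHH2 and FARAGE the highest and OCILY7 the lowest wild-type line. For TNFAIP3 the log2 fold change was −3.70 ± 0.67 (SE), a 13-fold lower level, with an edgeR BH-adjusted p of 0.0215. It was over 0.05, from 0.0502 to 0.0719, without DB, OCILY1, SUDHL4, WSU_DLCL2, DOHH2 or FARAGE.

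NFKBIA, which encodes the inhibitor IkBa and is likewise induced by NF-kB, had between 49.9 and 181 CPM in EZH2-mutant lines with a median of 107, against 505 CPM in DOHH2, 286 in FARAGE, 275 in OCILY19, 116 in OCILY7 and 643 in TOLEDO. Only OCILY7 lay within the mutant range. At −1.85 ± 0.45 (SE) and an edgeR BH-adjusted p of 0.098, the gene did not pass. The promoters of TNFAIP3, NFKBIA and CD44 are shown because these genes, with CCR7, are the members of the list of NF-kB target and feedback genes among the 15 of smallest p in the lower direction. CCR7 has no entry in the promoter table. They are the 250 bases before the RefSeq gene start (GRCh38.p14), read 5′ to 3′ on the gene's own strand, and capitals mark matches to the kB consensus on either strand.
TNFAIP3: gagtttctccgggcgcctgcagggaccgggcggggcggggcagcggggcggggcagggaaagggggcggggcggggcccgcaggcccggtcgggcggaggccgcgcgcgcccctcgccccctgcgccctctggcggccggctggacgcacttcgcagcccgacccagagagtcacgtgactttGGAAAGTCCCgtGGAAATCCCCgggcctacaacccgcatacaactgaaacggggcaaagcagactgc
NFKBIA: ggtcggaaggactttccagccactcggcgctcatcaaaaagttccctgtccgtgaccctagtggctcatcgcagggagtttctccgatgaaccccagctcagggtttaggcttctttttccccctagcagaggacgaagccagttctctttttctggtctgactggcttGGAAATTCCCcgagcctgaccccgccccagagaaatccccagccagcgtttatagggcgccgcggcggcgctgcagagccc
CD44: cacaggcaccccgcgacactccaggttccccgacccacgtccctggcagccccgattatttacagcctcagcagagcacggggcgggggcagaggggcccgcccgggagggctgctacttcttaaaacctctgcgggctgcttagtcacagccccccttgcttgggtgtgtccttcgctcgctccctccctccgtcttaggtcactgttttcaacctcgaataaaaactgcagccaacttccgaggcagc
The windows were chr6:137867009-137867258 (plus strand), chr14:35404750-35404999 (minus strand) and chr11:35138921-35139170 (plus strand). TNFAIP3 held 2 matches, NFKBIA held 1 and CD44 held 0, whereas 5.05% of all 27305 RefSeq promoters of this length held at least 1. Over the whole list, 17 of the 23 genes in the panel had an entry, of which 8 held at least 1 match and 9, ICAM1 among them, held 0. A match is a run of letters and was not tested for binding.

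**Figure D2:**
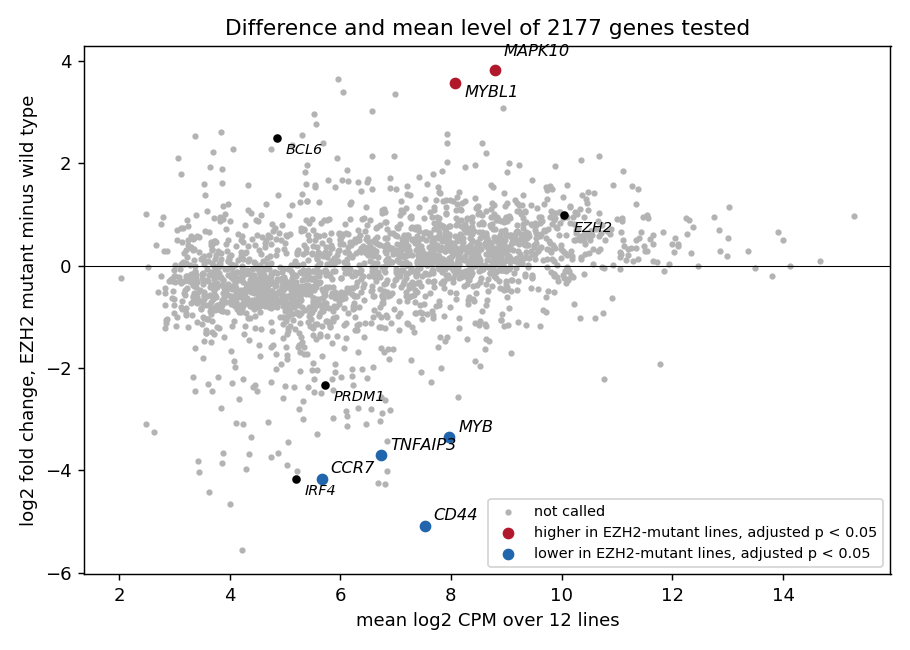
Mean log2 CPM over the 12 lines (horizontal axis) and log2 fold change, EZH2 mutant minus wild type (vertical axis), for the 2177 genes tested. Called genes are coloured, red for 2 higher and blue for 4 lower in the mutant lines, and black points mark 4 further genes that were not called.

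Differences leaned with the level of the gene, when the genes were split by mean level into 3 classes of like size. Of the 726 genes of lowest level, 171 were above 0 and the median log2 fold change was −0.42. Among the 726 of highest level the median was 0.36, with 547 genes above 0. At an unadjusted p under 0.05, 47 genes of the lowest class were lower in the mutant lines, whereas 79 of the highest class were higher. The part of this lean in the results on gene lists was not tested, so the medians of several lists are also given with the median of each gene's level class subtracted.

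Where the groups did not overlap, 12 genes were found (0.551% of those tested), 7 higher (0.322%) and 5 lower (0.23%) in the mutant lines. Beside the 5 called genes among them these were NLK, DNAJC10, IL6ST and TRIB1, and ATP5F1, ODC1 and TADA3, the last 3 picked after their values were seen. The count was 36 without SUDHL10, 28 without FARAGE, 28 without OCILY7, 23 without OCILY19, 21 without WSU_DLCL2, 19 without SUDHL6 and 19 without DOHH2. A smaller group overlaps less by construction.

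IL6ST, the gp130 chain shared by receptors of the interleukin-6 family, had between 13.7 and 121 CPM in EZH2-mutant lines with a median of 61.2, against 777 CPM in DOHH2, 394 in FARAGE, 288 in OCILY19, 169.6 in OCILY7 and 150.4 in TOLEDO. Its groups were apart, with SUDHL10 the highest mutant line. Its fitted log2 fold change was −2.56 ± 0.54 (SE) with an edgeR BH-adjusted p of 0.0571, and it was called without SUDHL10 or TOLEDO. TRIB1, a pseudokinase that steers proteins to degradation, ranged between 24.9 and 80.7 CPM in EZH2-mutant lines with a median of 34.1, against 285 CPM in DOHH2, 87 in FARAGE, 304 in OCILY19, 84.4 in OCILY7 and 221 in TOLEDO. Its lowest wild-type line, OCILY7, lay just above the highest mutant line, OCILY1, and the edgeR BH-adjusted p was 0.098.

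ADM, the gene for the vasodilator peptide adrenomedullin, was the uncalled gene with the smallest adjusted p, 0.0538 (edgeR, BH). It had between 7.74 and 75 CPM in EZH2-mutant lines with a median of 28.2, against 405 CPM in DOHH2, 52.4 in FARAGE, 744 in OCILY19, 225 in OCILY7 and 194 in TOLEDO. FARAGE fell inside the mutant range, and without FARAGE the gene was called, at an adjusted p of 0.0191. SMAD7, the inhibitory SMAD of TGF-beta signalling, had between 9.91 and 91.7 CPM in EZH2-mutant lines with a median of 53.6, against 342 CPM in DOHH2, 303 in FARAGE, 306 in OCILY19, 76.2 in OCILY7 and 506 in TOLEDO. Only OCILY7 lay within the mutant range, and the edgeR BH-adjusted p was 0.0637 (0.0319 without OCILY7, 0.0357 without SUDHL10).

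6 more genes stood among the 15 with the smallest p in the lower direction, none called, with log2 fold changes between −4.27 and −1.85. RAG1, the recombinase of antigen receptor genes, had between 20.8 and 155 CPM in EZH2-mutant lines with a median of 41.2, against 82 CPM in DOHH2, 90.7 in FARAGE, 4882 in OCILY19, 121 in OCILY7 and 1055 in TOLEDO. OCILY19 and TOLEDO were far above the other lines, and DOHH2, FARAGE and OCILY7 lay inside the mutant range. NRIP1, a nuclear receptor corepressor, had between 17.2 and 170.4 CPM in EZH2-mutant lines with a median of 37.7, against 134 CPM in DOHH2, 118 in FARAGE, 5586 in OCILY19, 140.3 in OCILY7 and 167 in TOLEDO. OCILY19 alone stood outside the mutant range. TNFRSF1B, a receptor for TNF, had between 3.23 and 83.5 CPM in EZH2-mutant lines with a median of 7.71, against 869 CPM in DOHH2, 388 in FARAGE, 459.6 in OCILY19, 43.2 in OCILY7 and 41.4 in TOLEDO. DOHH2, FARAGE and OCILY19 were above all mutant lines, and OCILY7 and TOLEDO were not. CAV1, the coat protein of caveolae, had between 2.16 and 29.5 CPM in EZH2-mutant lines with a median of 7.62, against 452 CPM in DOHH2, 99.9 in FARAGE, 24.3 in OCILY19, 14.9 in OCILY7 and 123 in TOLEDO. OCILY19 and OCILY7 lay inside the mutant range. The scaffold gene AHNAK had between 1.69 and 10.6 CPM in EZH2-mutant lines with a median of 3.86, against 108 CPM in DOHH2, 6.6 in FARAGE, 11.7 in OCILY19, 12.2 in OCILY7 and 338 in TOLEDO. For AHNAK, DOHH2 and TOLEDO were far above the rest, and FARAGE lay inside the mutant range. The edgeR BH-adjusted p was 0.098 for RAG1, CAV1, AHNAK, TNFRSF1B, NRIP1 and NFKBIA alike.

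**Figure D3:**
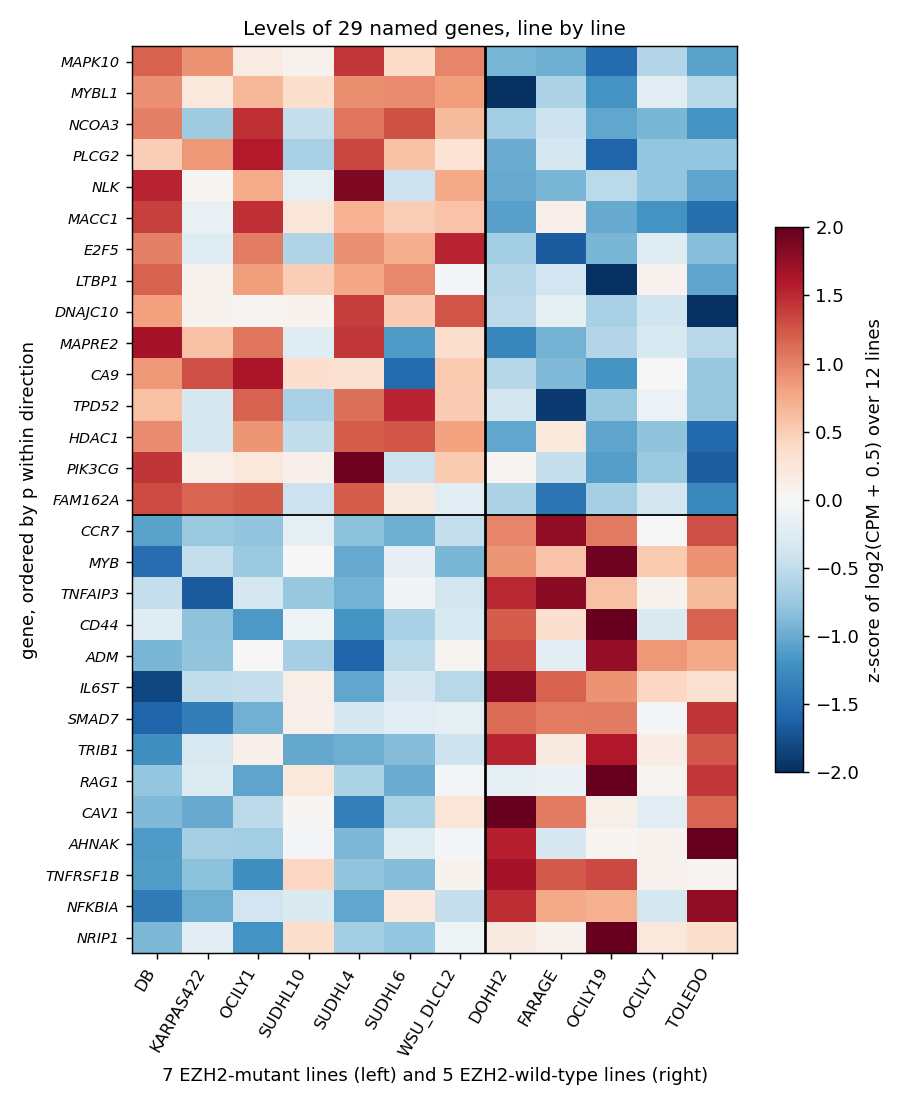
The z-score of log2(CPM + 0.5) over the 12 lines for 29 genes named by rule, 15 higher (top) and 14 lower (bottom) in the mutant lines, with 7 EZH2-mutant lines left and 5 EZH2-wild-type lines right of the black line. Among the lower genes SUDHL10 is often the palest mutant line and OCILY7 the palest wild-type line.

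In the higher direction, 13 of the 15 genes of smallest p were not called. NCOA3, a coactivator of nuclear receptors, had between 861 and 6012 CPM in EZH2-mutant lines with a median of 3981, against 876 CPM in DOHH2, 1125 in FARAGE, 642 in OCILY19, 721 in OCILY7 and 556 in TOLEDO. KARPAS422 and SUDHL10 lay within the wild-type range, and the other 5 mutant lines were above it. For NCOA3 the log2 fold change was 2.13 ± 0.50 (SE) with an edgeR BH-adjusted p of 0.098. PLCG2, the phospholipase that B-cell receptor signals activate, had between 352 and 2232 CPM in EZH2-mutant lines with a median of 976, against 265 CPM in DOHH2, 452 in FARAGE, 161 in OCILY19, 320.2 in OCILY7 and 317 in TOLEDO. SUDHL10 alone lay within the wild-type range. Its log2 fold change was 1.96 ± 0.47 (SE) with an edgeR BH-adjusted p of 0.098. NLK, the Nemo-like kinase of the WNT pathway, had between 244 and 1515 CPM in EZH2-mutant lines with a median of 620.4, against 155 CPM in DOHH2, 167 in FARAGE, 225 in OCILY19, 187 in OCILY7 and 149 in TOLEDO. The groups were apart, with SUDHL6 nearest to the wild-type lines. MACC1, a regulator of the MET gene, had between 459 and 1651 CPM in EZH2-mutant lines with a median of 807, against 214 CPM in DOHH2, 554 in FARAGE, 231 in OCILY19, 199 in OCILY7 and 155 in TOLEDO. Among wild-type lines FARAGE was the highest, inside the mutant range. E2F5, an E2F factor of the repressing kind, had between 561 and 3429 CPM in EZH2-mutant lines with a median of 2026, against 529 CPM in DOHH2, 230.2 in FARAGE, 435 in OCILY19, 765 in OCILY7 and 457 in TOLEDO. OCILY7 lay within the mutant range. NLK, MACC1 and E2F5 shared the edgeR BH-adjusted p of 0.098.

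Of the remaining 8, DNAJC10, a disulphide reductase of the endoplasmic reticulum, had between 1397 and 5657 CPM in EZH2-mutant lines with a median of 2226, against 755 CPM in DOHH2, 1078 in FARAGE, 658 in OCILY19, 861 in OCILY7 and 107 in TOLEDO. The groups were apart, and TOLEDO was far below the other wild-type lines. LTBP1, which holds latent TGF-beta in the matrix, had between 231 and 1329 CPM in EZH2-mutant lines with a median of 754, against 109 CPM in DOHH2, 140.0 in FARAGE, 7.9 in OCILY19, 278 in OCILY7 and 53 in TOLEDO. Only OCILY7 overlapped the mutant range. The fold changes of these 8 genes lay between 1.29 (FAM162A) and 2.95 (CA9) on the log2 scale, and the others were HDAC1, MAPRE2, PIK3CG and TPD52. HDAC1, a histone deacetylase, had between 1353 and 4983 CPM in EZH2-mutant lines with a median of 3770.2, against 903 CPM in DOHH2, 2279.6 in FARAGE, 888 in OCILY19, 1076 in OCILY7 and 611 in TOLEDO. KARPAS422 and SUDHL10 lay within the wild-type range. PIK3CG, the gamma catalytic subunit of PI3K, had between 257 and 2764 CPM in EZH2-mutant lines with a median of 488, against 410.1 CPM in DOHH2, 249 in FARAGE, 131 in OCILY19, 188 in OCILY7 and 75.6 in TOLEDO. SUDHL6 was the only mutant line below DOHH2. CA9, a carbonic anhydrase induced by low oxygen, had between 5.05 and 453 CPM in EZH2-mutant lines with a median of 96.9, against 20.5 CPM in DOHH2, 13.1 in FARAGE, 8.6 in OCILY19, 46.3 in OCILY7 and 15.8 in TOLEDO. SUDHL6 was the lowest of all 12 lines. MAPRE2, which binds microtubule ends, had between 113 and 1311 CPM in EZH2-mutant lines with a median of 510.4, against 98.1 CPM in DOHH2, 135 in FARAGE, 184 in OCILY19, 233 in OCILY7 and 189 in TOLEDO. TPD52, a protein of vesicle traffic, had between 1235 and 8671 CPM in EZH2-mutant lines with a median of 3751, against 1603 CPM in DOHH2, 398 in FARAGE, 1116 in OCILY19, 1985 in OCILY7 and 1117 in TOLEDO. Both overlapped, as did FAM162A, a gene induced by low oxygen, with between 1089 and 2908 CPM in EZH2-mutant lines with a median of 2681, against 982 CPM in DOHH2, 611 in FARAGE, 953 in OCILY19, 1131 in OCILY7 and 673 in TOLEDO.

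IRF4 was far lower in 6 of the 7 mutant lines than in any wild-type line, the exception being SUDHL6. IRF4 (chromosome 6, 391739 to 411447), the factor that drives germinal-centre exit and plasma cell fate, was read at 3.62 CPM in DB, 1.1 in KARPAS422, 8.35 in OCILY1, 3.17 in SUDHL10, 4.67 in SUDHL4, 207 in SUDHL6 and 3.21 in WSU_DLCL2, against 1755 CPM in DOHH2, 356 in FARAGE, 194 in OCILY19, 241 in OCILY7 and 421 in TOLEDO. Apart from SUDHL6 the mutant lines reached at most 8.35 CPM, whereas SUDHL6 lay just above the lowest wild-type line, OCILY19. Over all 12 lines the log2 fold change was −4.17 ± 1.23 (SE) with an edgeR BH-adjusted p of 0.168, so IRF4 was not called. Without SUDHL6 it was −7.20 with an adjusted p of 0.000237. Other tests called it over all 12 lines, DESeq2 at a BH-adjusted p of 0.00653, limma-voom at 0.0146 and limma on the authors' log2 values at 0.0112. In all, IRF4 was called in 4 of 26 alternatives, each given here, and stayed uncalled in 22. With each line left out in turn it was called in 1 of 12 fits, the one without SUDHL6.

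The gene lists were chosen with earlier results of these data known, so a share of members called describes a list and tests nothing. On the list of plasma cell and germinal centre exit genes, 18 of 19 genes in the panel were tested. Of these 1, CD44, fell, against 0.184% of all genes. A further 17 did not pass, and 8 of the 18 had an unadjusted p under 0.05, all lower in the mutant lines, against the 5.7% of all genes. The median log2 fold change was −1.39, against −0.02 over all genes and −1.66 with the level class subtracted. PRDM1, the repressor Blimp-1 that ends the germinal-centre programme, had between 11.6 and 102 CPM in EZH2-mutant lines with a median of 21.9, against 575 CPM in DOHH2, 79.8 in FARAGE, 116 in OCILY19, 125 in OCILY7 and 44.8 in TOLEDO. DOHH2 was the highest, FARAGE and TOLEDO lay inside the mutant range, and the log2 fold change was −2.33 ± 0.71 (SE) with an edgeR BH-adjusted p of 0.168. XBP1, the secretory factor, had between 34.8 and 553 CPM in EZH2-mutant lines with a median of 129, against 1068 CPM in DOHH2, 79.5 in FARAGE, 1899 in OCILY19, 2373 in OCILY7 and 557 in TOLEDO. FARAGE was among the mutant lines, and the edgeR BH-adjusted p was 0.168. TNFRSF17, the BCMA receptor of plasma cells, had between 17.2 and 1107 CPM in EZH2-mutant lines with a median of 196, against 827 CPM in DOHH2, 89.9 in FARAGE, 14.3 in OCILY19, 549.7 in OCILY7 and 93.4 in TOLEDO, and the groups overlapped.

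**Figure D4:**
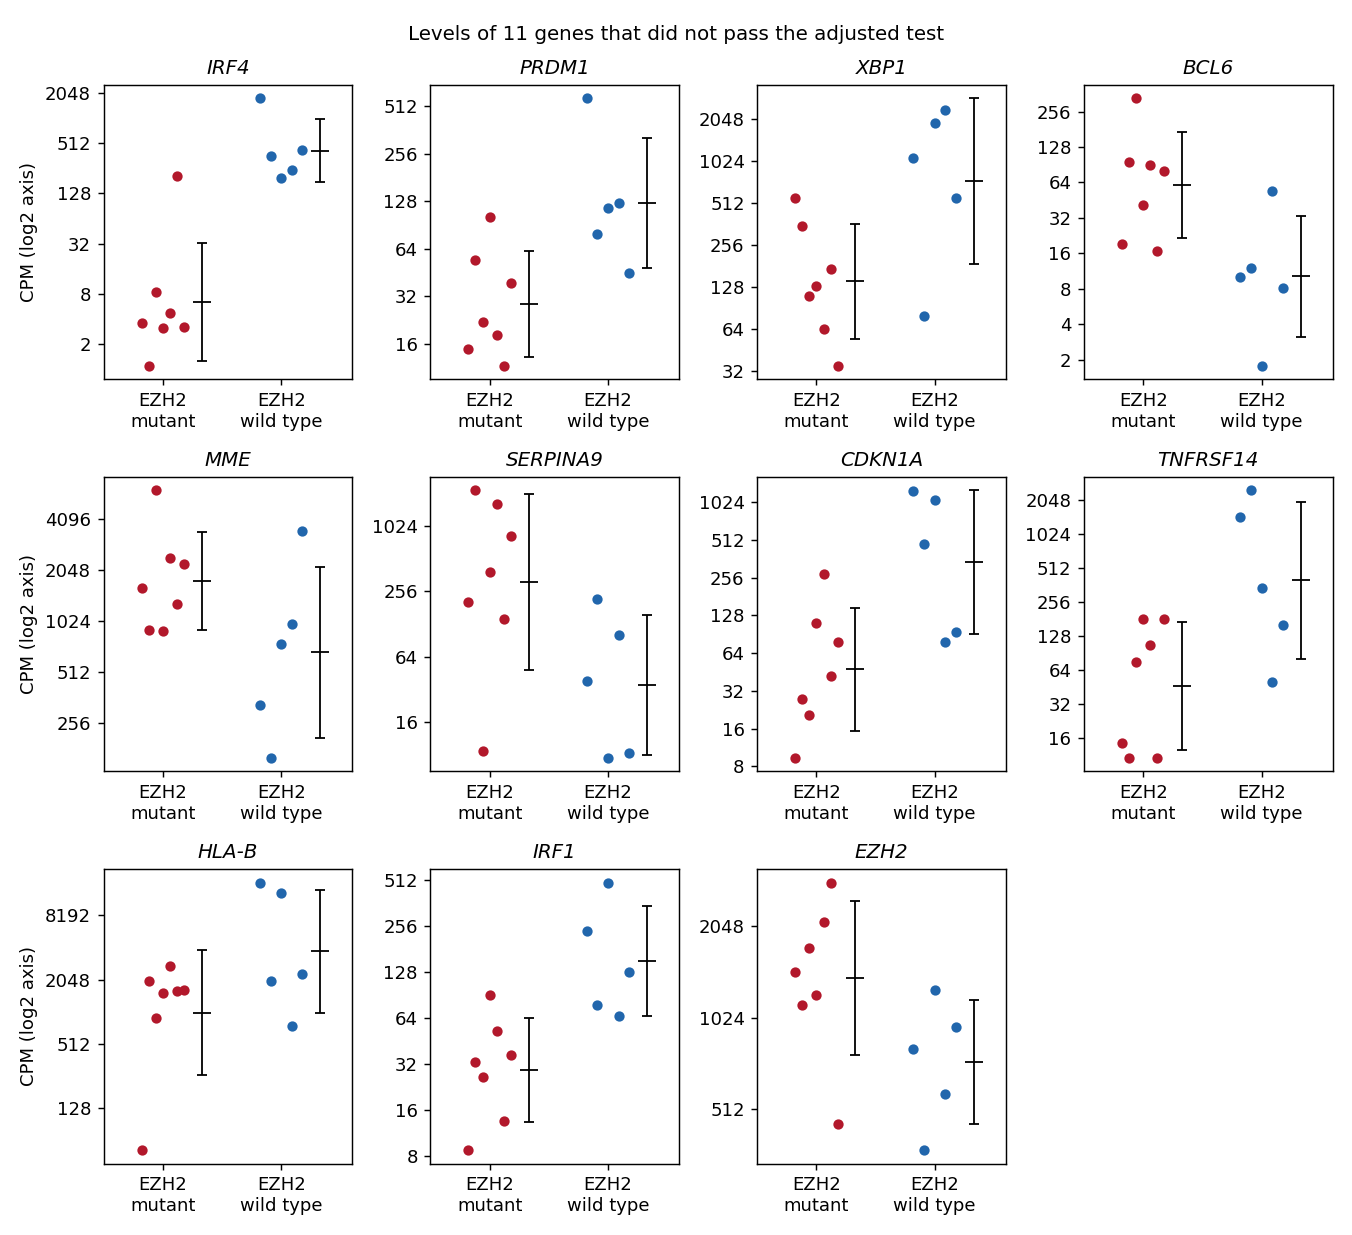
CPM (log2 axis) of 11 genes that were not called, 1 point per line, EZH2-mutant lines in red on the left and EZH2-wild-type lines in blue on the right of each panel, with black bars for the mean and SD of log2 CPM. IRF4 is below 10 CPM in all mutant lines but SUDHL6, and the groups overlap in all 11 panels.

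All 14 germinal centre B-cell genes in the panel were tested. Of these 2 rose, MAPK10 and MYBL1, against 0.0919% of all genes, while 12 did not pass. As this list was chosen with earlier results known, the 2 calls do not test it. At an unadjusted p under 0.05, 5 were higher and 0 lower in the mutant lines, against the 5.37% of all genes higher. The list's median log2 fold change was 1.19, and 1.08 with the level class subtracted. BCL6, the master repressor of the germinal centre, had between 16.8 and 332 CPM in EZH2-mutant lines with a median of 80.4, against 10.1 CPM in DOHH2, 11.9 in FARAGE, 1.77 in OCILY19, 53.7 in OCILY7 and 8.17 in TOLEDO. OCILY7 was the only wild-type line inside the mutant range, and the log2 fold change was 2.49 ± 0.93 (SE) with an edgeR BH-adjusted p of 0.288. SERPINA9, a protease inhibitor typical of germinal-centre B cells, had between 8.8 and 2152 CPM in EZH2-mutant lines with a median of 382, against 38.7 CPM in DOHH2, 219 in FARAGE, 7.54 in OCILY19, 101 in OCILY7 and 8.42 in TOLEDO. OCILY1 was as low as OCILY19 and TOLEDO, at an edgeR BH-adjusted p of 0.22. MME, which encodes CD10, had between 887 and 5992 CPM in EZH2-mutant lines with a median of 1603, against 328 CPM in DOHH2, 159 in FARAGE, 742 in OCILY19, 977 in OCILY7 and 3459.8 in TOLEDO, with TOLEDO high among the wild-type lines. LMO2 was low in most lines of both groups, at between 3.98 and 139.8 CPM in EZH2-mutant lines with a median of 8.91, against 58.3 CPM in DOHH2, 86.4 in FARAGE, 8.25 in OCILY19, 69.1 in OCILY7 and 11.8 in TOLEDO.

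Among 21 of 23 NF-kB target and feedback genes tested, 3 fell (TNFAIP3, CCR7 and CD44), against 0.184% of all genes, and 18 did not pass. This list, too, was chosen with earlier results known, so the 3 calls do not test it. 5 were lower and 0 higher at an unadjusted p under 0.05, against 5.7% of all genes lower, and the median log2 fold change was −0.74 (−0.76 with the level class subtracted). The genes of the NF-kB subunits were not called. NFKB1 had between 93.3 and 564 CPM in EZH2-mutant lines with a median of 474, against 669.5 CPM in DOHH2, 1191 in FARAGE, 443 in OCILY19, 237 in OCILY7 and 331 in TOLEDO, and NFKB2 had between 30.4 and 620.4 CPM in EZH2-mutant lines with a median of 199, against 599 CPM in DOHH2, 1164 in FARAGE, 187 in OCILY19, 111 in OCILY7 and 329 in TOLEDO. REL, another subunit, had between 328 and 3702 CPM in EZH2-mutant lines with a median of 841, against 327 CPM in DOHH2, 2168 in FARAGE, 587 in OCILY19, 459 in OCILY7 and 110.1 in TOLEDO. The edgeR BH-adjusted p was 0.817 for NFKB1, 0.668 for NFKB2 and 0.783 for REL. FARAGE was the highest line for NFKB1, NFKB2, TNFAIP3 and CCR7, whereas NFKBIA was highest in TOLEDO, CD44 in OCILY19 and REL in a mutant line. Any part of the Epstein-Barr virus that FARAGE is known to carry was not tested.

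**Figure D5:**
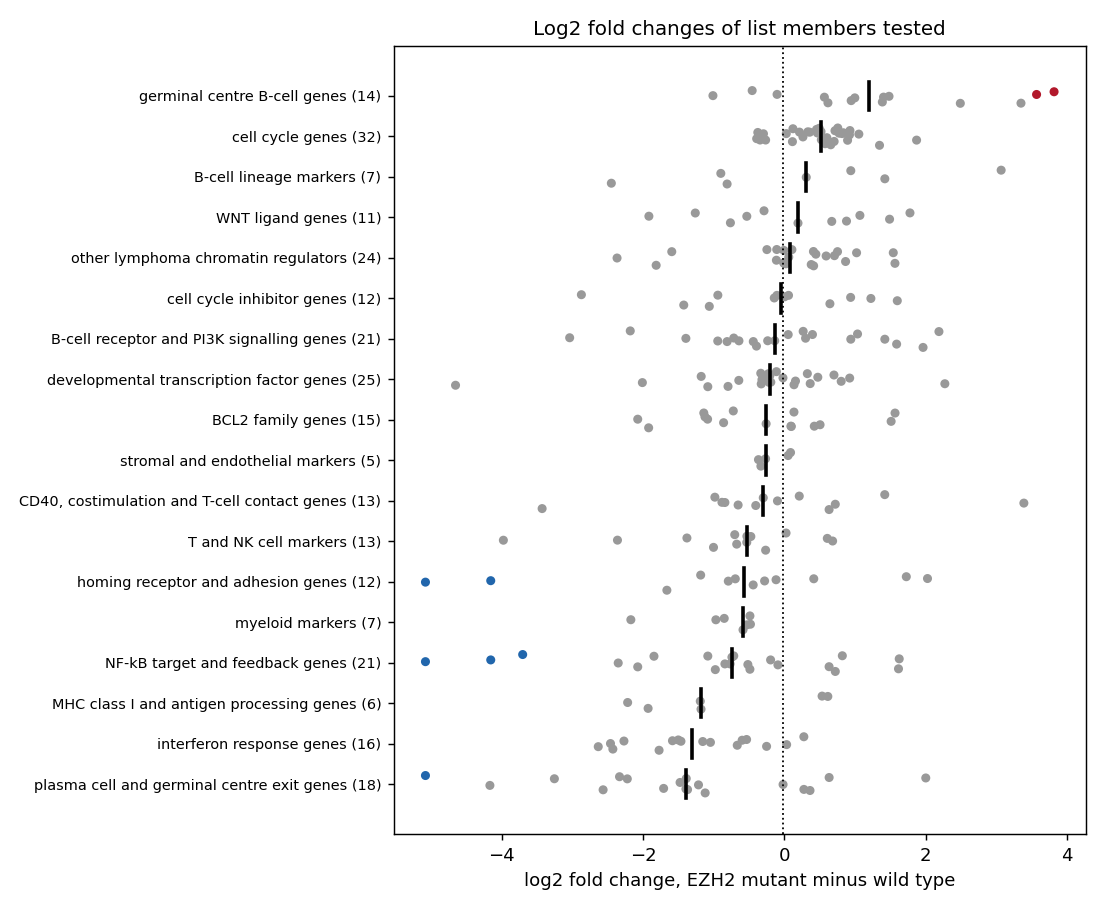
Log2 fold change, EZH2 mutant minus wild type (horizontal axis), of tested members of 18 gene lists with at least 4 members tested (number in brackets). Black bars are medians, coloured points are called genes (red higher, blue lower) and the dotted line is the median of all genes, −0.02. Medians run from 1.19 for germinal centre genes to −1.39 for exit genes.

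No gene of the lists for antigen presentation passed the edgeR test. MHC class I presents peptides from inside the cell to T cells, and the panel held 6 of the 17 listed genes. Of these, 3 were lower and 0 higher at an unadjusted p under 0.05, against 5.7% of all genes lower, and the median log2 fold change was −1.19 (−1.32 with the level class subtracted). HLA-B had between 51.9 and 2762 CPM in EZH2-mutant lines with a median of 1613, against 16634 CPM in DOHH2, 2008 in FARAGE, 13218 in OCILY19, 748 in OCILY7 and 2334 in TOLEDO, with DB the lowest. Its log2 fold change was −2.22 ± 0.79 (SE) with an edgeR BH-adjusted p of 0.247. DESeq2 called 0 of the class I genes. Class I genes are alike in sequence, and how reads shared between them were counted is not given in the sources used here. CD74, the class II invariant chain, was the only class II gene in the panel, with between 5073 and 53238 CPM in EZH2-mutant lines with a median of 18058, against 25706 CPM in DOHH2, 7887 in FARAGE, 30982 in OCILY19, 9642 in OCILY7 and 12672 in TOLEDO.

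The 16 interferon response genes tested had a median log2 fold change of −1.31, or −1.10 with the level class subtracted. edgeR called 0 of them, and DESeq2 called 2, against 3.54% of all genes by DESeq2. At an unadjusted p under 0.05, 5 were lower and 0 higher, against 5.7% of all genes lower. IRF1, an interferon-induced factor that also acts on MHC class I genes, had between 8.7 and 90 CPM in EZH2-mutant lines with a median of 32.8, against 238 CPM in DOHH2, 78.2 in FARAGE, 492 in OCILY19, 66 in OCILY7 and 128 in TOLEDO. SUDHL10 was the only mutant line above the lowest wild-type lines, and the log2 fold change was −2.43 ± 0.65 (SE) with an edgeR BH-adjusted p of 0.138. MX1, an antiviral GTPase, had between 1.82 and 625 CPM in EZH2-mutant lines with a median of 19.7, against 1335 CPM in DOHH2, 209.7 in FARAGE, 22 in OCILY19, 123 in OCILY7 and 150.2 in TOLEDO. KARPAS422 was second only to DOHH2. STAT2 had between 90.1 and 1528 CPM in EZH2-mutant lines with a median of 502, against 964 CPM in DOHH2, 410.0 in FARAGE, 517 in OCILY19, 206 in OCILY7 and 494 in TOLEDO.

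Cell cycle inhibitors, of which CDKN1A is known as a gene that EZH2 holds down, had 0 called by edgeR among 12 tested. DESeq2 called 1, against 3.54% of all genes. The median log2 fold change was −0.05, which turned to 0.05 with the level class subtracted. CDKN1A, the p21 inhibitor, had between 9.3 and 275 CPM in EZH2-mutant lines with a median of 41.8, against 1247 CPM in DOHH2, 471 in FARAGE, 1060.0 in OCILY19, 77.8 in OCILY7 and 94.1 in TOLEDO. SUDHL4 was the highest mutant line, above OCILY7 and TOLEDO, and the log2 fold change was −2.87 ± 0.84 (SE) with an edgeR BH-adjusted p of 0.168. CDKN1B, which encodes p27, had between 209 and 798 CPM in EZH2-mutant lines with a median of 338, against 1043 CPM in DOHH2, 468 in FARAGE, 853 in OCILY19, 555 in OCILY7 and 1043 in TOLEDO. Only OCILY1 among mutant lines exceeded the lowest wild-type lines, at an edgeR BH-adjusted p of 0.294. They were the 2 inhibitors lower at an unadjusted p under 0.05, against 5.7% of all genes lower, and 0 were higher. The 32 cell cycle genes tested had 0 called by edgeR and 1 by DESeq2, against 3.54% of all genes by DESeq2. At an unadjusted p under 0.05, 3 were higher (against 5.37% of all genes) and 0 lower. Most of the list lay in the class of highest level, where 79 of 726 genes were higher and 15 lower at that threshold. The median of the cell cycle genes was 0.52, against 0.23 with the level class subtracted. MKI67, the proliferation marker Ki-67, had between 211 and 2629.8 CPM in EZH2-mutant lines with a median of 743, against 565 CPM in DOHH2, 609.6 in FARAGE, 1159 in OCILY19, 921 in OCILY7 and 459 in TOLEDO.

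On the costimulation list 0 of 13 genes were called by edgeR and 2 by DESeq2, against 3.54% of all genes by DESeq2. At an unadjusted p under 0.05, 2 were higher and 1 lower, against 5.37% of all genes higher and 5.7% lower. The median log2 fold change was −0.30 (−0.23 with the level class subtracted). TNFRSF14, the HVEM receptor through which B cells restrain T cells, had between 10.7 and 183 CPM in EZH2-mutant lines with a median of 75.9, against 1455 CPM in DOHH2, 2499 in FARAGE, 343 in OCILY19, 50.6 in OCILY7 and 162 in TOLEDO. DOHH2 and FARAGE were far above all mutant lines, OCILY7 and TOLEDO were inside the mutant range, and the log2 fold change was −3.43 ± 0.95 (SE) with an edgeR BH-adjusted p of 0.162. CD86, a ligand of CD28, had between 119 and 679 CPM in EZH2-mutant lines with a median of 331, against 113 CPM in DOHH2, 310.1 in FARAGE, 98.2 in OCILY19, 186 in OCILY7 and 36.8 in TOLEDO. CD40 had between 131 and 5429.6 CPM in EZH2-mutant lines with a median of 1301, against 2200.4 CPM in DOHH2, 2795 in FARAGE, 743 in OCILY19, 729 in OCILY7 and 1075 in TOLEDO, and KARPAS422 was far below the other lines.

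The remaining lists held no edgeR call beyond the genes above. DESeq2 called 3 of 24 chromatin regulators and 4 of 21 B-cell receptor and PI3K genes, against 3.54% of all genes. At an unadjusted p under 0.05, 5.37% of all genes were higher and 5.7% lower, the shares to set beside the lists below. Of 24 chromatin regulators tested, 2 were higher and 3 lower at that threshold. Their median log2 fold change was 0.08 (0.04 with the level class subtracted, as in the brackets that follow). KDM6A, the demethylase of the residue that EZH2 methylates, had between 178 and 347 CPM in EZH2-mutant lines with a median of 290.5, against 275 CPM in DOHH2, 426 in FARAGE, 376 in OCILY19, 174 in OCILY7 and 175 in TOLEDO. Of the 12 homing and adhesion genes, CCR7 and CD44 fell, against 0.184% of all genes, and the median was −0.57 (−0.42). The 21 B-cell receptor and PI3K genes had a median of −0.14 (−0.30), with 4 higher and 2 lower at an unadjusted p under 0.05. The 15 BCL2 family genes had a median of −0.26 (−0.61), with 2 higher and 1 lower at the same threshold. WNT ligands and developmental transcription factors, families that PRC2 is known to silence in other tissues, had medians of 0.19 over 11 genes and −0.21 over 25 genes. With the level class subtracted these were 0.62 for the WNT ligands and 0.14 for the developmental factors, whose sign turned. Under the authors' log2 values the WNT and cell cycle inhibitor medians lay on the other side of the median of all genes. So did the medians of chromatin regulators, developmental factors, and B-cell lineage, T and NK and stromal markers with the TMM factor as a covariate.

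The B-cell identity of the lines was checked by markers. B-cell lineage genes, of which 7 of 16 listed were in the panel, were read in all 12 lines. Their summed level was 3139 to 17227 CPM in mutant lines and 1942 to 7347 CPM in wild-type lines. Members differed in both directions, with log2 fold changes of −2.45 to 3.07 and a median of 0.31 (0.39 with the level class subtracted). At an unadjusted p under 0.05, 2 were higher and 1 lower, against 5.37% of all genes higher and 5.7% lower. edgeR called 0 of them and DESeq2 called 1, against 3.54% of all genes by DESeq2. MS4A1, the gene for CD20, had between 84.7 and 4699 CPM in EZH2-mutant lines with a median of 1895, against 68 CPM in DOHH2, 713 in FARAGE, 32.8 in OCILY19, 279.8 in OCILY7 and 133 in TOLEDO, and was not called at an edgeR BH-adjusted p of 0.168. Markers of other cells were also read. 10 of 13 T and NK markers, 7 of 7 myeloid markers and 3 of 5 stromal markers had log2 fold changes below 0, against 51.1% of all genes. Most members of each list lay in the class of lowest level, where only 171 of 726 genes were above 0. Medians were −0.53 for T and NK, −0.59 for myeloid and −0.27 for stromal markers. With the level class subtracted they were −0.11, −0.43 and 0.13, so the sign of the stromal median turned. Of the T and NK, myeloid and stromal markers 0 were called by edgeR. At an unadjusted p under 0.05, 2 T and NK markers and 1 myeloid marker were lower, against 5.7% of all genes lower. ITGAM and CSF3R were at 0 counts in at least 1 wild-type line, as were KDR, TEK and FN1, and TEK and ACTA2 were at 0 in at least 1 mutant line. Summed levels of T and NK markers were 137 to 1049 CPM in mutant and 332 to 3466 CPM in wild-type lines. Myeloid markers summed to 136 to 736 CPM in mutant and 223 to 998 CPM in wild-type lines, and stromal markers to 81.5 to 555 CPM in mutant and 199.7 to 3028 CPM in wild-type lines. CD3D, a gene of the T-cell receptor complex, reached 105 CPM in SUDHL10 and 125 CPM in OCILY7, the lines with the highest TMM factors. Summed over each list, however, T and NK markers were highest in FARAGE (TMM factor 1.16). Myeloid and stromal markers were each highest in OCILY19 (TMM factor 0.803). The part of these levels in the results was not tested. Without SUDHL10 and OCILY7, lines left out after seeing the data, 11 genes were called, the 6 among them.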

How the data were processed

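Targeted RNA-Seq counts of 36 lymphoma lines were used, of which 12 entered the comparison and 24 did not. Raw counts per gene, whole numbers, were deposited by the authors. The authors also deposited log2 normalized values, which equal log2(count / a factor + 1) within 0.00523 of each value. The genome was hg38, per the submitters' processing notes. For the aligner and the counter, the tools were not given in the sources used here. Control probes, 10 in all, did not enter library sizes or tests.

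Members and gene lists were chosen with earlier results of these data known. edgeR 4.0.16 (R 4.3.3) fitted the raw counts with TMM factors over the 12 lines, a robust quasi-likelihood fit and no covariate. The filter kept genes reaching 10 CPM in 5 or more lines, and p-values were BH-adjusted over 2177 genes. Levels are CPM, and log2 CPM used a prior count of 2. Standard errors are the log2 fold change over the square root of F. Nothing says that a line was cultured more than once, so p-values measure the spread between lines. Named genes were the 15 per direction, called genes first and then those of smallest p, EZH2, and called members and the first 4 others of each list, and some of these are not reported here. Of 451 listed genes, 308 were in the panel. Level classes were added after seeing the data. Alternatives used DESeq2 1.42.0, limma 3.58.1, other factors, filters and covariates, an exact rank test and left-out lines. The scripts were tested on simulated data. CpG content of promoters was void as a check, since 1731 of 2177 genes tested (79.5%) had a RefSeq promoter, under the 80% required. The kB consensus was chosen after a looser pattern matched most promoters. Gene positions are from the GENCODE annotation of GRCh38.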

Additional observations from a re-analysis of the deposited data

Results flagged for a closer look

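Among 206 groups (103 genes in each of the 2 groups), 12 held a line far from the others by Dixon's criterion, and chance gives about 1 in 20. In the mutant lines these were IRF4 high in SUDHL6 (207 CPM), KMT2D high in SUDHL4 (1434 CPM), CA9 low in SUDHL6 (5.05 CPM), CD40 low in KARPAS422 (131 CPM), NFKB1 low in KARPAS422 (93.3 CPM), HLA-B low in DB (51.9 CPM) and CD79A low in SUDHL10 (274 CPM). In the wild-type lines they were MYB high in OCILY19 (3476 CPM), NRIP1 high in OCILY19 (5586 CPM), BCL2L1 high in TOLEDO (692 CPM), DNAJC10 low in TOLEDO (107 CPM) and SMAD7 low in OCILY7 (76.2 CPM). The next line was 8.35 CPM for IRF4, 844 CPM for MYB and 167 CPM for NRIP1.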

How the results depend on the processing

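No called gene changed direction under any alternative run. The log2 fold change of EZH2 was 0.59 to 1.42 over 27 alternatives and was called in none. The 6 calls became 77 with DESeq2, 1 with the log2 TMM factor as covariate, 3 with the log2 library size as covariate and 0 with the exact rank test (171 genes at an unadjusted p under 0.05), whose smallest possible p is 0.00253. They were 2 to 12 with 1 line left out, 2 without OCILY19 and TOLEDO and 11 without SUDHL10 and OCILY7, both pairs chosen after seeing the data. The 5 list members called became 26 with DESeq2, 1 and 2 with those covariates, 0 with the rank test, 2 to 7 with 1 line left out and 2 without OCILY19 and TOLEDO. The 12 genes without overlap became 14 to 36 with 1 line left out, 51 without OCILY19 and TOLEDO and 49 without SUDHL10 and OCILY7. Over the 20 alternatives the lowest count was 8, in a run that kept all 12 lines. Other scalings, filters and tools called 5 to 9 genes. The cause of these differences was not tested, beyond smaller groups overlapping less by construction. TMM factors over 36 lines gave the same values, so that run counts among the alternatives without adding a check. Upper-quartile scaling moved the median of all genes by −0.14 and library size alone by −0.22. CCR7 lost its call in 1 of 26 alternatives (the rank test, which called 0 genes), and it was not tested under the filter at 50 CPM. Of 27 alternatives, MAPK10 lost its call in 3, MYB in 8, TNFAIP3 in 11, CD44 in 12 and MYBL1 in 14. No paired analysis was possible because the labels give no replicate numbers that the groups share. At these depths 3 counts were at most 0.37 CPM in a line.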

Other observations

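The 24 lines in no group were not compared. After TMM scaling over 36 lines, CCR7 was between 10.7 and 7671 CPM with a median of 364 in them, and 1 lay within the range of the mutant lines. MAPK10 was between 18.6 and 2423 CPM with a median of 94, with 2 lines inside the mutant range. MYBL1 was between 6.91 and 547 CPM with a median of 33.1, with 2 inside it. TNFAIP3 was between 45 and 2491 CPM with a median of 259.6, with 2 inside it, and CD44 was between 22 and 6524 CPM with a median of 1282, with 5 inside it. MYB was between 59.4 and 2655 CPM with a median of 297, with 10 inside it. IRF4 was between 5.89 and 1630.5 CPM with a median of 647, with 2 inside it. Inside the range of the wild-type lines lay 15 of the 24 for CCR7, 13 for MAPK10, 19 for MYBL1 and 15 for TNFAIP3. For CD44 it was 21, for IRF4 22 and for MYB 6. The ranges of the groups overlap for CD44 and IRF4, so a line can count in both. The GCB class of the wild-type lines, taken from their names, was not tested with these genes.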
